A study of Rattus norvegicus with 10 samples.

Results

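The circadian clock genes examined here are Clock, Npas2, Per1, Per2, Per3, Cry1, Dbp, Tef, Nr1d1 and Nr1d2. They were found as every probe set whose annotation gives 1 of these 10 symbols. All 10 genes were on the array, among 14217 genes named by the annotation, with 19 probe sets of 31099 in the deposited table. The samples are liver RNA of male Wistar rats, an outbred laboratory strain, on 10 arrays, 2 for each of 5 diets. For 12 weeks the rats were fed chow or 1 of 4 high-fat diets in which fat made up 42% of the energy. These differed in their fat source: coconut fat, olive oil, lard, or fish oil, which the design text calls cod liver oil. All were fasted overnight before a piece of liver was frozen. The hour of killing, the fat share of chow and whether each sample is 1 rat are not given in the sources used here, so p-values measure only the spread between these samples.

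The molecular clock is a feedback loop of transcription. CLOCK, or its close relative NPAS2, pairs with BMAL1 and switches on the Per and Cry genes through a DNA motif called the E-box, and the PER and CRY proteins then repress that pair. The same pair drives Nr1d1 and Nr1d2, which encode the nuclear receptors REV-ERB-alpha and REV-ERB-beta, and these repress Bmal1, Npas2 and Cry1 through a motif called the RORE. DBP and TEF are transcription factors that carry the rhythm to liver genes through the D-box. In liver, many of these transcripts rise and fall strongly over a day, and feeding time is a main cue for their phase.

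These motifs can be seen in the 250 bases before the start of several genes, which are shown because the values below are ordered by the same arms of the loop. The sequences are from RefSeq on build GRCr8, read 5' to 3' on the gene's strand: Per2 at chr9:99496994-99497243 (minus strand), Tef at chr7:115206577-115206826 (plus), the second listed start of Nr1d1 at chr10:84229455-84229704 (minus) and Bmal1 at chr1:176766078-176766327 (plus). Capitals mark CACGTG (E-box), CACGTT (a variant E-box), TTATGTAA (D-box) and the RORE.
Per2: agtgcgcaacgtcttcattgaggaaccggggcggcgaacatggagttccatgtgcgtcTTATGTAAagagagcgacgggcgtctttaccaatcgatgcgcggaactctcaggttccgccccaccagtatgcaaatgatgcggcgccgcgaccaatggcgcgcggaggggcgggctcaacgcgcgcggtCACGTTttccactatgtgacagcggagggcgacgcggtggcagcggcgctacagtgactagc
Tef: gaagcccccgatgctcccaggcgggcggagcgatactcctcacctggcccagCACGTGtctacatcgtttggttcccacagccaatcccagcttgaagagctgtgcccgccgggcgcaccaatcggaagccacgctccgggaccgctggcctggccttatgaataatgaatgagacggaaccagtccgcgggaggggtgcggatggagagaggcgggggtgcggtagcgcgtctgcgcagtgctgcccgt
Nr1d1: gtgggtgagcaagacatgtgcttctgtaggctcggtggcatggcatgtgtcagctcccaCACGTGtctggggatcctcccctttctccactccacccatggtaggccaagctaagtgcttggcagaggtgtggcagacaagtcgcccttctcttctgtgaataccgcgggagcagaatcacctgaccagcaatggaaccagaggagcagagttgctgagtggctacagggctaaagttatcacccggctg
Bmal1: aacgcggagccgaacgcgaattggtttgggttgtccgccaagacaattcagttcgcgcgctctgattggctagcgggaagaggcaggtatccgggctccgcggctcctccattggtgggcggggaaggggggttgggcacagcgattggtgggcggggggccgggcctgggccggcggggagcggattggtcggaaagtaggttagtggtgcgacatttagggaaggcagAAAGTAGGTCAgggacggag
Of the 10 genes, 9 had a promoter in that table, and Cry1 had no entry. Both strands of 300 bases per promoter were searched. Tef, Per2 and Nr1d1 held a match, and Clock, Npas2, Per1, Per3, Dbp and Nr1d2 held none in this window, which says nothing of the factors. The E-box of Tef lay at bases -198 to -193 and that of Nr1d1 at -191 to -186, counted back from the start. Per2 held a D-box at -192 to -185 and the variant E-box at -62 to -57, and Bmal1 held a RORE at -20 to -10. Of 33469 promoters, 6.42% held the E-box, 4.83% the variant E-box, 0.893% the D-box and 0.356% the RORE. A match is a description of the letters and not a site of binding.

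The values are MAS5 signals, a brightness per probe set on a linear scale. Every array had a 2% trimmed mean near 100, and the median signal lay between 28.7 and 31.9 on 9 arrays. The second lard array stood apart, with a median of 36.8 and the weakest correlation with arrays of the other diets (mean r = 0.927). Of 31042 probe sets without controls, the 40% with the lowest mean were left out and 18625 were tested. All 7 annotated hepatocyte markers were well measured on every array, with a summed signal between 57394 and 68716. Among 8 macrophage markers, all above the background bound, the summed signal was 2423 to 2617 with fish oil, 2799 to 3760 with the other high-fat diets and 3276 to 3481 with chow. Of 6 lymphocyte markers 2 were above the bound on all arrays, while Cd3d and Cd79b were at or below it on all, and the sum was 126 to 136 with fish oil and 155 to 229 elsewhere. All 3 red cell markers were above the bound, with sums of 4290 to 5790 with fish oil, 5499 to 10140 with the other high-fat diets and 6141 to 7499 with chow. In pieces of whole liver, fewer cells of a type and less RNA per cell cannot be told apart.

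Of the 19 clock probe sets, 15 passed the filter on dim signals, and they covered 8 of the 10 genes. Per1 and Per3, repressors of the loop, were represented only by untested probe sets. The Per1 probe set lay between 4.2 and 14.1 and was above 12.8, the highest signal of the bacterial trp controls, on 1 array of 10. The Per3 probe sets were above that bound on 2 arrays and 1 array. The dim second probe set of Per2 was above it on 5. No level of Per1 or Per3 can therefore be compared between diets.

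None of the 15 tested probe sets passed in any of 9 comparisons with limma at a Benjamini-Hochberg adjusted p of 0.05, where any difference among the 5 diets, each high-fat diet against chow, their mean against chow and 3 contrasts among them were tested. The share of all tested probe sets that passed was 0.14% for any difference, 0.0161% for lard, 0.0268% for olive oil, 0% for coconut fat and 0.156% for fish oil against chow. It was 0.0376% for the 4 high-fat diets averaged against chow, 0.424% for fish oil against the 3 other fats, and 0% both for olive oil against lard and for coconut fat against lard and olive oil averaged. At an unadjusted p under 0.05 there were 1 of 15 clock probe sets for any difference (background 9.4%), 3 for the high-fat mean against chow (6.66%) and 3 for fish oil against its 3 counterparts (11.8%). For lard, olive oil, coconut fat and fish oil against chow these counts were 1, 1, 2 and 0 (7.99%, 8.38%, 5.43% and 7.63% of all tested). They were 1 for coconut fat against lard and olive oil (6.71%) and 0 for olive oil against lard (6.23%). These counts moved with single arrays. For the high-fat mean against chow the count fell most without chow array 1. It also fell without chow array 2, olive oil array 2 or coconut fat array 2. For fish oil against the other fats it fell without fish oil array 2 and rose without either lard array. The count for coconut fat against chow fell without either coconut fat array or chow array 2, and rose without either fish oil array. With 1 array left out, the other counts of 0 or 1 lay between 0 and 3. The median log2 fold change of the 15 was -0.12 for the high-fat mean relative to chow and -0.09 for fish oil relative to the other fats, beside -0.002 and -0.02 over all tested probe sets. Relative to chow it was -0.23 for fish oil, with 14 of 15 below 0, and -0.23 for olive oil, -0.13 for lard and -0.07 for coconut fat, with 9, 9 and 8 of 15 below 0. The medians over all tested probe sets were -0.01, 0.02, 0.04 and -0.02, and these comparisons share the chow arrays. In the same order, 9586, 8987, 8326 and 9700 of all 18625 tested probe sets were below 0. The 15 clock probe sets cover 8 genes and are not separate observations. With the brightest probe set of each gene, 7, 5, 5 and 4 of 8 were below 0, with a median of -0.16 for fish oil. With 2 arrays a diet, a p that misses the threshold does not show equal levels, so the values and intervals follow by role.

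**Figure D1:**
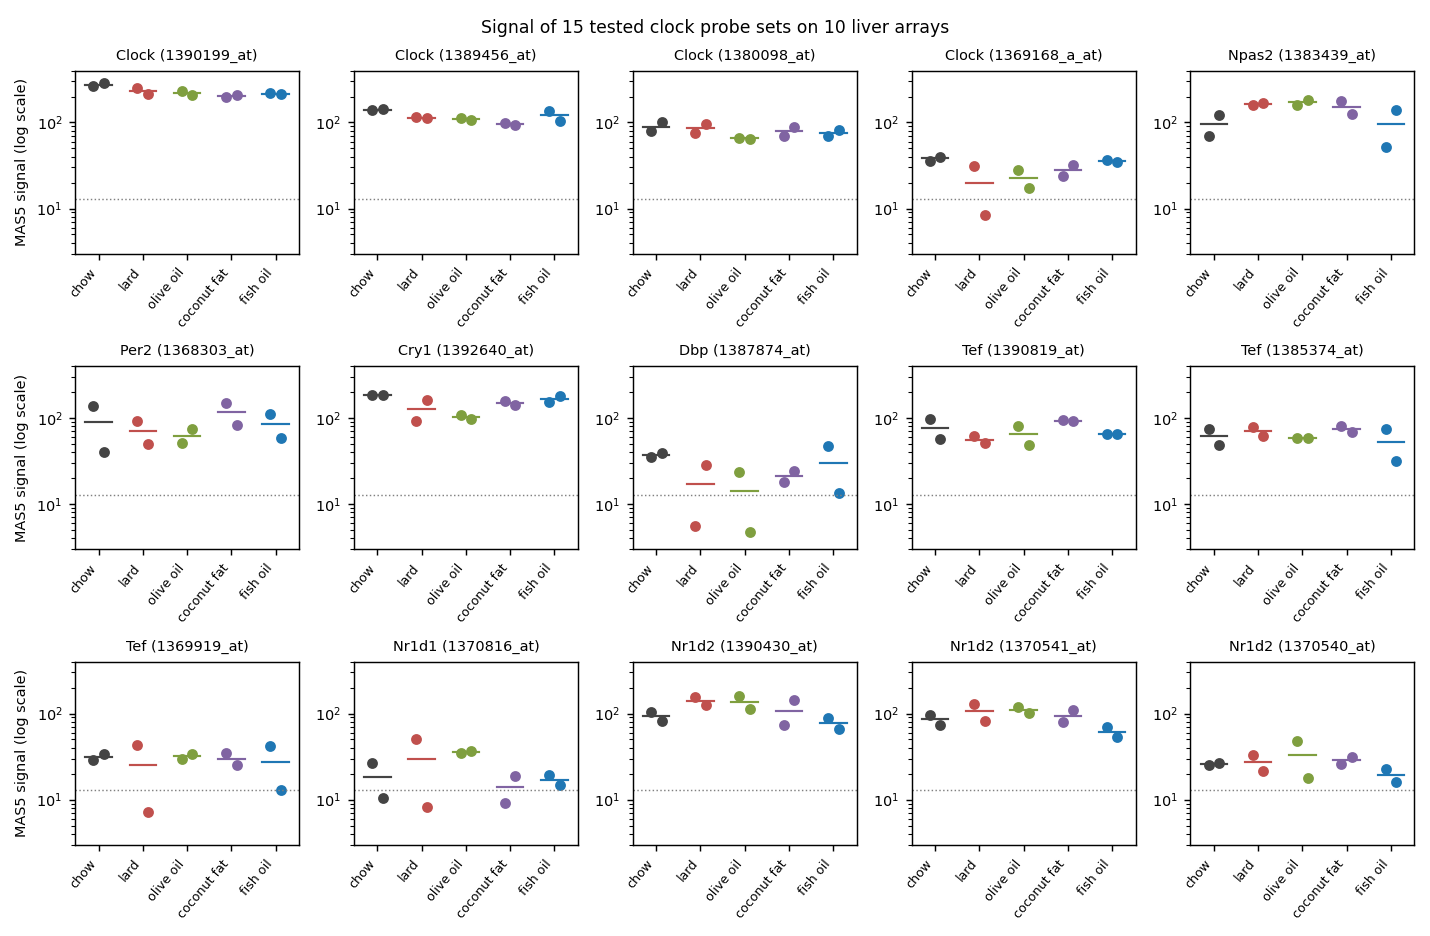
Signal of the 15 tested clock probe sets (vertical axis, MAS5 signal on a log scale) by diet, with 1 point per array, a bar at the mean of 2 arrays and a dotted line at the background bound of 12.8. Both chow points lie above all 8 high-fat points for the Clock probe sets 1390199_at and 1389456_at and for Cry1, while Per2, Dbp and Nr1d1 differ widely between arrays of the same diet.

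Among the activators, Clock encodes the protein that pairs with BMAL1 at the E-box. Its brightest probe set, 1390199_at, gave 264.4 and 287.1 with chow, 250.4 and 216.4 with lard, 231.8 and 210.2 with olive oil, 200 and 209.1 with coconut fat, and 217.9 and 215.7 with fish oil. Both chow arrays were the highest of the 10, and coconut fat had the lowest mean, 205 ± 6.43 against 276 ± 16.1 with chow (SD, n = 2). The average over the high-fat diets was 1.26-fold lower than chow (log2 fold change -0.33, SE 0.13, 95% interval -0.61 to -0.05, limma adjusted p = 0.642). The second probe set, 1389456_at, gave the same order of chow over all others, with 140 and 141.9 with chow and the highest other value 137.2, on a fish oil array. Its log2 fold change was -0.36 for the high-fat mean (SE 0.16, limma adjusted p = 0.739) and -0.53 for coconut fat against chow (SE 0.2, limma adjusted p = 0.835). These probe sets correlated at r = 0.776 over the 10 arrays and at 0.207 with diet means removed, a description of values that share the arrays.

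The other pairs of Clock probe sets correlated at r = -0.068 to 0.463 over the arrays. With diet means removed the range was -0.403 to 0.922, the highest for 1369168_a_at with 1390199_at. On 1380098_at, chow gave 78.6 and 100.3 and overlapped the high-fat arrays, which ranged from 64.8 to 96.7. On 1369168_a_at, chow gave 36.1 and 40.2 and fish oil 36.5 and 34.4, while the second lard array, at 8.5, was under the background bound. Both fish oil arrays were above the other 6 high-fat arrays there, as on 5.96% of all tested probe sets. Neither 1380098_at nor 1369168_a_at had an interval for the high-fat mean against chow that left out 0 (-0.64 to 0.2 and -1.48 to 0.35). So both chow arrays stood above all high-fat arrays on 2 of 4 Clock probe sets and, with Cry1, on 3 of 15 clock probe sets, beside 2.51% of all tested probe sets. These 3 cover 2 of 8 tested genes and rest on the same chow arrays, so they are not separate observations.

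Npas2, the partner that can stand in for CLOCK, showed a wide spread with chow and fish oil. The signals were 70.2 and 123.7 with chow, 51.4 and 139.2 with fish oil, 158.9 and 167.2 with lard, 160.6 and 184.3 with olive oil, and 176 and 125.4 with coconut fat. All 6 arrays of lard, olive oil and coconut fat were above both chow arrays, whereas fish oil arrays lay on either side of them. For each diet alone, the shares of all tested probe sets above both chow arrays were 23% for lard, 20.5% for olive oil and 17.1% for coconut fat. The share with all 6 arrays above both chow arrays was not counted. Fish oil was 1.86-fold lower than lard, olive oil and coconut fat averaged (log2 fold change -0.9, SE 0.33, 95% interval -1.61 to -0.18, limma adjusted p = 0.302). That value rested on the first fish oil array, since it was -0.21 without it and -1.59 without the second, where Npas2 had a limma adjusted p of 0.105. Against chow, the high-fat average gave 0.54 (95% interval -0.15 to 1.24), which became 0.15 when chow array 1 was left out and 0.94 when chow array 2 was. Bmal1, the common partner of both proteins, lay between 147.5 and 214.7 on all arrays, with a log2 fold change of 0.07 for the high-fat mean against chow (95% interval -0.27 to 0.41).

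Of the repressors, Cry1 encodes a cryptochrome that blocks the CLOCK and BMAL1 pair. Its signals were 182.9 and 186.5 with chow, 155.3 and 180.3 with fish oil, 159.1 and 140.7 with coconut fat, 91.3 and 161.7 with lard, and 109.3 and 98.2 with olive oil. Chow was above all 8 other arrays, and the order of the means was chow, fish oil, coconut fat, lard and olive oil. Fish oil overlapped coconut fat, and lard overlapped olive oil, coconut fat and fish oil. Olive oil was 1.76-fold lower than chow (104 ± 7.85 against 185 ± 2.55, SD, n = 2; log2 fold change -0.82, SE 0.25, 95% interval -1.36 to -0.27). It had the smallest p among clock probe sets in that comparison but did not pass (limma adjusted p = 0.389). The difference for lard against chow was -0.59 (SE 0.25, limma adjusted p = 0.603). It was -0.19 without the first lard array and -0.99 without the second, the array that stood apart. The high-fat mean was 1.38-fold lower (log2 fold change -0.46, SE 0.2, limma adjusted p = 0.721). The paralog Cry2 gave no such order, with 103.9 and 88.6 with chow on the brighter of 2 probe sets. Both lard arrays, at 68.6 and 52.6 (the latter on the array that stood apart), were below the other 8, which ranged from 87.4 to 110.3. The share of all tested probe sets with that order was not counted. Lard was 1.57-fold lower than chow on this probe set (-0.65 on the log2 scale, SE 0.23, 95% interval -1.15 to -0.15, limma adjusted p = 0.513). The other probe set gave -0.3 (95% interval -0.88 to 0.29), with lard at 44.6 and 51.9 and the lowest signal, 43.2, on an olive oil array.

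Per2, another repressor, differed by up to 3.42-fold between arrays of the same diet. The signals were 137.6 and 40.2 with chow, 92.5 and 50 with lard, 50.6 and 74 with olive oil, 150.1 and 83 with coconut fat, and 111.8 and 58 with fish oil. The ranges of all diets overlapped except those of olive oil and coconut fat. For the high-fat mean against chow the log2 fold change was 0.06, with a 95% interval of -0.87 to 1.

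Nr1d1 and Nr1d2 encode the REV-ERB repressors. Nr1d1 was dim, with 7 of 10 arrays above the bound. It gave 26.6 and 10.5 with chow, 50.4 and 8.1 with lard, 34.6 and 36.6 with olive oil, 9.2 and 18.6 with coconut fat, and 19.3 and 14.6 with fish oil. The highest signal was on a lard array while the other lard array was under the bound, and both olive oil arrays lay above both chow arrays (background 20.5%). Olive oil differed from chow by 0.94 on the log2 scale (SE 0.74, limma adjusted p = 0.775).

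Nr1d2 was measured on 3 tested probe sets that ran together across arrays (r = 0.654 to 0.897). On 1390430_at the signals were 104.9 and 80.9 with chow, 157.5 and 124.3 with lard, 157.7 and 114.2 with olive oil, 73.6 and 141.7 with coconut fat, and 88.1 and 66.1 with fish oil. On 1370541_at they were 97 and 73.9, 129.7 and 81.8, 118.9 and 102, 80.4 and 108.8, and 69.2 and 52.7 in the same order of diets. Fish oil had the lowest mean on all 3, and on 1370541_at both fish oil arrays were below the other 8 arrays (4.35% of all tested probe sets, and 6.8% below the 6 high-fat arrays). Relative to lard, olive oil and coconut fat averaged, the fish oil signal on 1370541_at was 1.66-fold lower (log2 fold change -0.73, SE 0.23, 95% interval -1.24 to -0.22, limma adjusted p = 0.237). On 1390430_at it was 1.6-fold lower (-0.68, SE 0.26, limma adjusted p = 0.323; leaving out fish oil array 1 gave -0.88 and array 2 gave -0.48) and on 1370540_at the value was -0.51 (95% interval -1.4 to 0.39). The 3 probe sets measure the same transcripts and are not separate evidence. In the same comparison 7 of 8 macrophage markers had values below 0 (median log2 fold change -0.34). So did all 4 tested lymphocyte markers (-0.64) and all 3 red cell markers (-0.61). Of these, 0 passed in limma and 3, 1 and 2 had an unadjusted p under 0.05, beside 11.8% of all tested probe sets. Also below 0 were 6 of 7 hepatocyte (-0.06) and 5 of 7 stellate cell markers (-0.08). Above 0 were 4 of 5 endothelial markers (0.13), all 3 tested cholangiocyte markers (0.4) and the 1 tested adipocyte marker (0.2). The part of any cell type in the Nr1d2 difference was not tested.

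**Figure D2:**
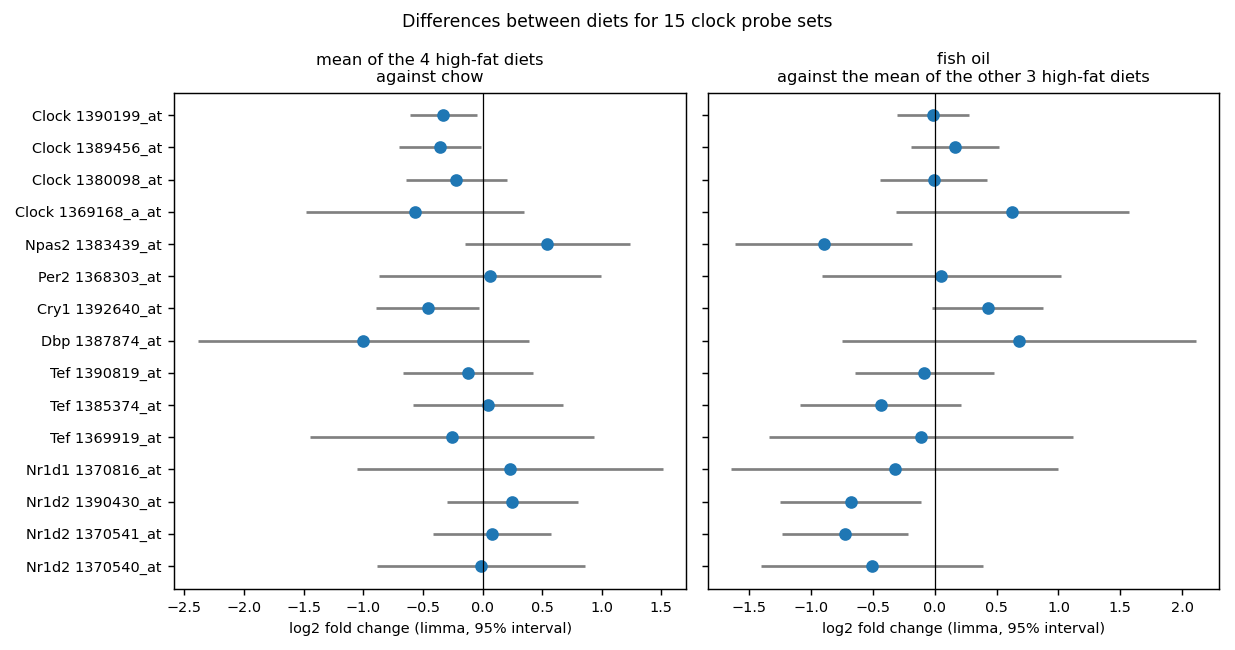
Log2 fold changes of the 15 tested clock probe sets (points) with unadjusted 95% intervals from limma (lines), in 2 comparisons, all high-fat diets averaged against chow and fish oil against the average of lard, olive oil and coconut fat. Intervals leave out 0 for 2 Clock probe sets and Cry1 in the first and for Npas2 and 2 Nr1d2 probe sets in the second, and none of these has an adjusted p under 0.05.

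Among the output factors, Dbp encodes a D-box activator whose transcript is one of the most rhythmic in liver. It gave 35.7 and 38.8 with chow, 5.6 and 28.6 with lard, 23.6 and 4.7 with olive oil, 18.2 and 24 with coconut fat, and 46.9 and 13.4 with fish oil. The chow arrays lay above all arrays of lard, olive oil and coconut fat and between the fish oil arrays. For lard, olive oil and coconut fat each alone, 16.7%, 17.5% and 19.2% of tested probe sets lay below both chow arrays. The share with all of these diets below chow together was not counted. The lowest lard and olive oil values were under the background bound. The high-fat mean differed from chow by a log2 fold change of -1 (SE 0.63, 95% interval -2.39 to 0.39, limma adjusted p = 0.862).

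Tef encodes a related D-box factor and had 3 tested probe sets. On 1390819_at, coconut fat gave 93.9 and 92.9, chow 97.3 and 56.5, and the other 6 arrays 48.5 to 81.3. Coconut fat was 1.55-fold higher there than lard and olive oil averaged (0.63 on the log2 scale, SE 0.27, limma adjusted p = 0.72). The share of all tested probe sets with both coconut fat arrays above the other 6 high-fat arrays was not counted. The Tef probe set 1385374_at ranged from 31.8 to 80.6 and 1369919_at from 7.2 to 43.6, with chow at 73.7 and 48.9 and at 28.6 and 34 inside both ranges, and the 3 correlated at r = 0.229 to 0.479.

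The clock genes differed in how far arrays of the same diet lay apart. The pooled standard deviation between the arrays of a diet was 0.97 on the log2 scale for Dbp, 0.85 for Nr1d1 and for the Tef probe set 1369919_at, and 0.74 for Per2. Of all tested probe sets, 2.59%, 5.28%, 5.21% and 8.68% had a larger one. The first 3 had signals under the background bound, on 2 arrays for Dbp, 3 for Nr1d1 and 1 for that Tef probe set, and the part of dimness in their spread was not tested. Per2 and Npas2 were above the bound on all arrays, and their largest ratio within a diet was 3.42 with chow and 2.71 with fish oil. Npas2 had a standard deviation of 0.53 (18.9% larger). The Clock probe sets, from the brightest to the dimmest, had 0.09, 0.13, 0.19 and 0.55 (97.2%, 90.7%, 74.4% and 17.3% larger), beside a median of 0.295 over all tested. The last of these was under the bound on 1 array.

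**Figure D3:**
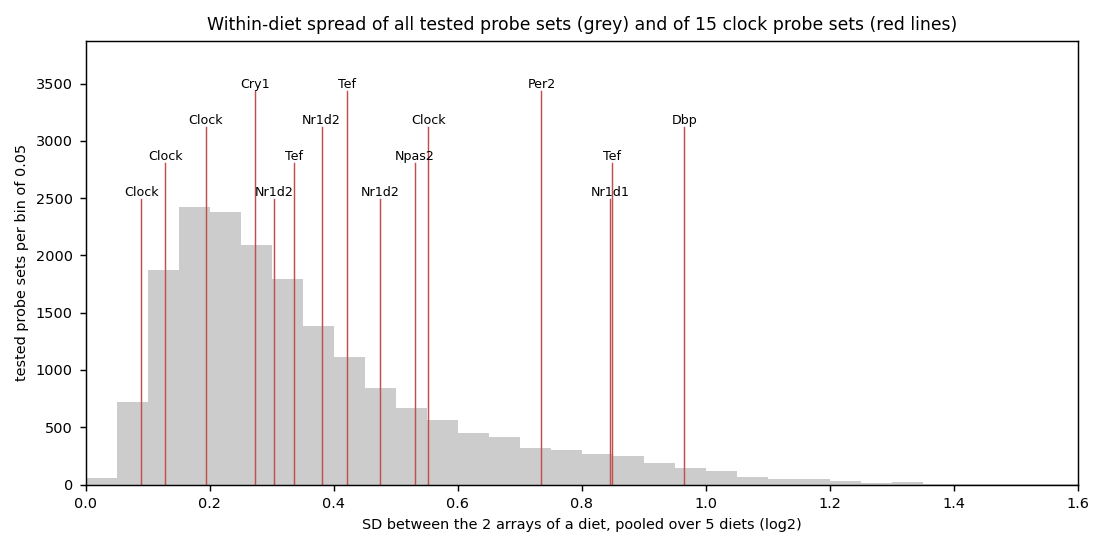
Number of tested probe sets (vertical axis) by the pooled standard deviation between the arrays of a diet on the log2 scale (horizontal axis), with red lines at the 15 clock probe sets. The 4 Clock probe sets lie at 0.09, 0.13, 0.19 and 0.55, Per2 at 0.74, Nr1d1 and the dimmest Tef probe set at 0.85, and Dbp at 0.97.

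Relations between members were described over the 10 arrays with the brightest tested probe set of each gene. Cry1 was inverse to Nr1d1 (r = -0.791, and -0.897 with the mean of each diet removed), and in all 5 diets the array with more Nr1d1 had less Cry1. The lard arrays carried part of this: without them the values were -0.725 and -0.57. Npas2 was inverse to Nr1d2 within all 5 diets (r = -0.688 with diet means removed), although r was 0.225 across diets. Nr1d1 and Nr1d2 ran together (r = 0.617 and 0.626). These are 3 of 45 pairs among the 8 members tested, Bmal1 and Cry2, picked after their values were seen. Bmal1 was not inverse to Nr1d1 (r = 0.306, and 0.138 with diet means removed) or to Nr1d2 (0.094 and 0.297). Cry1 and Nr1d2 gave -0.713 and -0.437. Pairs outside this arm could be as strong with diet means removed, such as Tef with Bmal1 (0.834) and Bmal1 with Cry2 (0.777). Whether repression shows in these arrays was not tested. How often pairs among all tested probe sets were opposite in all 5 diets was not counted. The arrays share scaling and offset, and 3 Nr1d1 values lay under the background bound.

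**Figure D4:**
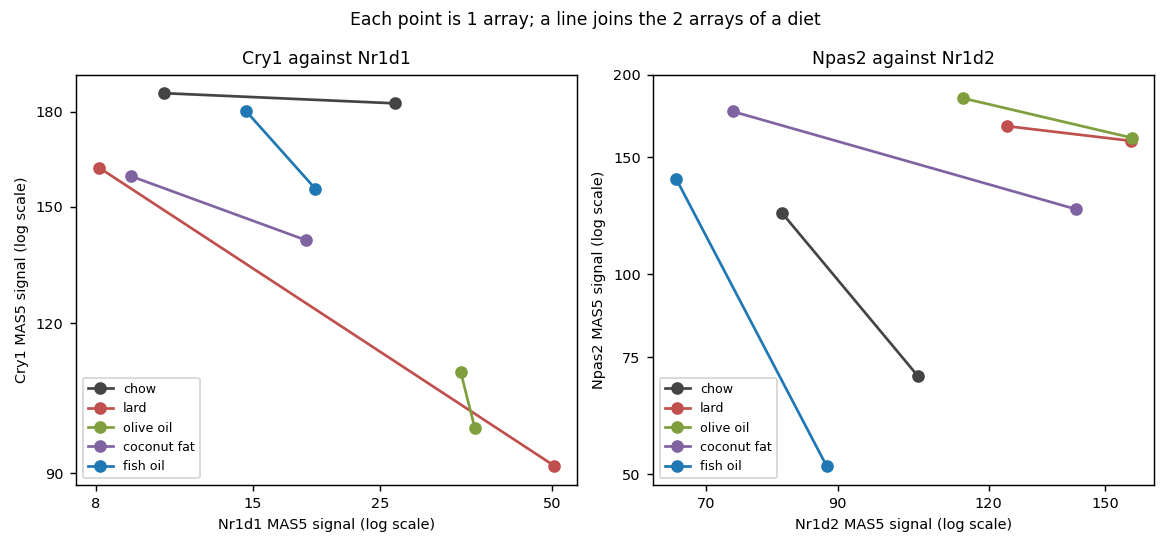
Cry1 against Nr1d1 and Npas2 against Nr1d2, as MAS5 signals on log scales with 1 point per array and a line joining the arrays of a diet. Every line falls from left to right, and the lard line runs from an Nr1d1 signal under the bound, 8.1, to 50.4.

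**Figure D5:**
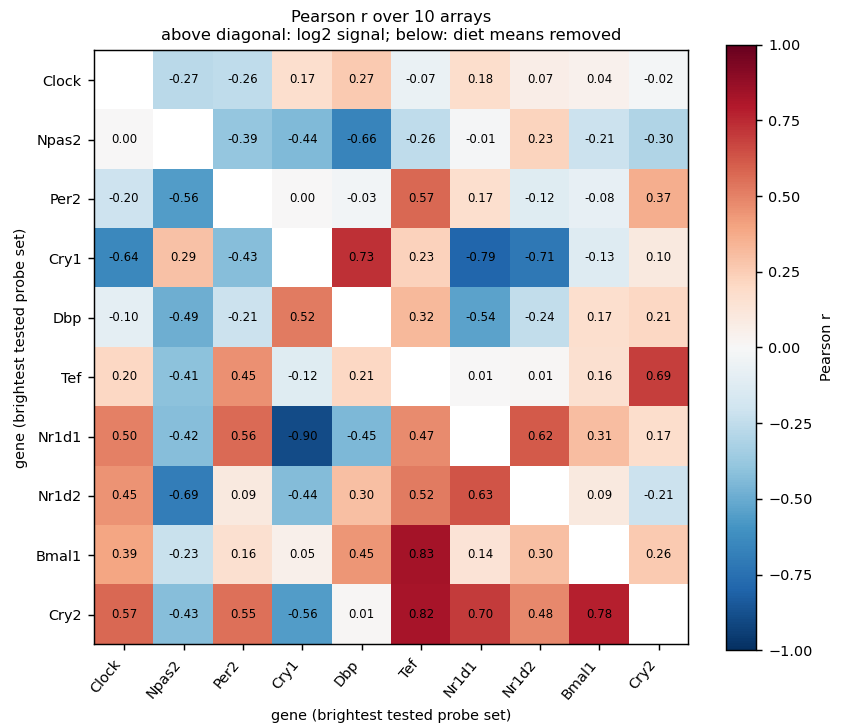
Pearson r for each pair of genes over 10 arrays, from log2 signals above the diagonal and with diet means removed below it. The most negative cells above and below the diagonal are Cry1 with Nr1d1 (-0.791 and -0.897), and Tef with Cry2 is among the most positive (0.693 and 0.823).

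Of the 3 relations planned for a test, that of Dbp and Per3 was not run because Per3 was too dim. Dbp and Npas2, which belong to opposite arms of the loop, gave r = -0.658 (permutation p = 0.0347, adjusted 0.0694 over 2 pairs, two-sided, n = 10) and rho = -0.745 (permutation p = 0.0174, adjusted 0.0348). Without the 2 arrays farthest from the median of Dbp r was -0.706, and with diet means removed it was -0.489, which was not tested. The permutations shuffled all 10 arrays without regard to diet, so differences between diet means can contribute to these p-values. On 2 arrays Dbp was under the background bound. Nr1d1 and Npas2 gave r = -0.015 and rho = -0.018 (permutation p = 0.969 and 0.972, adjusted the same), -0.024 without the 2 farthest arrays and -0.424 with diet means removed.

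By Pearson r over the 10 arrays, among tested probe sets with a single gene symbol that is not a provisional name, the genes most like Npas2 were Ppox (0.947), Dbi (0.938), Rab5b (0.933) and Ptprd (0.931), and the most opposite were Slc3a2 (-0.934) and Psmc3 (-0.927). Over all tested probe sets, named or not, 26 exceeded 0.9 for Npas2, 4 for Nr1d1 and 3 for Dbp. Nr1d1 was most like Zbtb7a (0.947), Srpk2 (0.922), Rapgef2 (0.882) and Wbp4 (0.854) and most opposite to Ints11 (-0.943) and Sec14l1 (-0.903). Dbp was most like Zfp777 (0.911), Pex16 (0.899), Eci3 (0.892) and Nt5c3b (0.888) and most opposite to Wbp11 (-0.884) and Arfgap2 (-0.841). With 18625 probe sets and 10 arrays, values of this size are a ranking only.

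Other genes of the pathway were read from 4 lists, each gene on its brightest tested probe set, and 0 passed in limma in any of the 9 comparisons. Of 12 other loop genes 7 were tested, with 1 at an unadjusted p under 0.05 for any diet difference, Cry2 (limma adjusted p = 0.519). Bhlhe40, a repressor of the loop, came next, with 112 and 76.6 with fish oil, 74.1 and 148.9 with chow and 115.8 to 281.1 on the other 6 arrays (limma adjusted p = 0.635). Both fish oil arrays lay below the other 6 high-fat arrays on 6.8% of all tested probe sets. Of 16 regulators of clock proteins 13 were tested, 0 had an unadjusted p under 0.05 for any difference, and the smallest p belonged to Csnk1e, a kinase of PER, and to Wdr5, a histone methylation factor that binds PER complexes (limma adjusted p = 0.652 and 0.67). Csnk1e gave 37.5 and 4.6 with chow, the second of these under the background bound, and 30.2 to 58 elsewhere. Of 22 liver output genes 18 were tested and 9 had an unadjusted p under 0.05 for any difference, beside 9.4% of all tested probe sets. The lists were chosen with earlier results of these data known, and the background was not limited to the brightest probe set of each gene. These shares are therefore no test of the liver output list. Nr1i3, the nuclear receptor CAR and a target of the D-box factors, led that list, with 294.2 and 131.4 with chow, 435.8 and 432.3 with fish oil and 74.3 and 65.3 with olive oil (limma adjusted p = 0.079). Gys2, liver glycogen synthase, gave 404.9 and 410.2 with chow and 235.6 to 344.4 with the high-fat diets (limma adjusted p = 0.289). Both chow arrays lay above all high-fat arrays on 2.51% of all tested probe sets. For the high-fat mean against chow the medians of these 3 lists were 0.07, 0.1 and 0.03. Of 15 glucocorticoid and temperature cue genes 11 were tested and 2 had an unadjusted p under 0.05 for any difference, Tsc22d3 and Tat (limma adjusted p = 0.353 and 0.442), with a median of 0.02.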

How the data were processed

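Liver RNA of 10 samples was measured on 1 array each. The authors deposited MAS5 signal intensity per probe set on a linear scale, per the submitters' processing notes, which name no version. Files were used without further scaling. After removal of 57 controls, log2(signal + 3.1) was taken, where 3.1 is the 10th percentile, which understates changes of dim genes, and the 40% with the lowest mean were left out. Gene names are those of the platform annotation, checked by gene identifier (0 changed). R 4.3.3 and limma 3.58.1 gave 1 mean for each diet from the 10 arrays (5 residual and 5.96 prior degrees of freedom, intensity trend), with p-values adjusted over all tested probe sets. The pipeline was tested on simulated data. Named were all members, Bmal1, Cry2, the 2 listed genes with the smallest F-test p per list and the 4 most and 2 least alike genes of 3 members. Correlations used 100000 permutations. Members, lists and comparisons were chosen with earlier results of these data known. Alternatives changed scaling, offset, filter, variance model, threshold, samples and block.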

Additional observations from a re-analysis of the deposited data

Results flagged for a closer look

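On the Nr1d2 probe set 1370541_at, both olive oil arrays lay above and both fish oil arrays below both chow arrays, a difference of 0.834 on the log2 scale between these diets. It is given because every array of one diet lay on the opposite side of chow from every array of the other. Of all tested probe sets, 20.5% had both olive oil arrays above both chow arrays and 19% had both fish oil arrays below them. The share with the whole order was not counted. The difference of olive oil and fish oil was not tested on its own.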

How the results depend on the processing

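In 188 of 188 alternative fits, 0 clock probe sets passed in limma, and the smallest adjusted p was 0.105, for Npas2 with fish oil against the other 3 diets without the second fish oil array. The 12 fold changes followed through the alternatives kept their direction and their side of the threshold in 252 of 252 values. Most of the 12 had an unadjusted p under 0.05 in the main limma fit. Many alternatives cannot move a fold change, such as another filter, variance model or threshold, or an array left out of a diet not compared. The full count is therefore partly fixed in advance and is no measure of robustness. Counts at an unadjusted p under 0.05 did move: they were 0 to 3 for the high-fat mean against chow and 1 to 4 for fish oil against the other fats, where the report gives 3 for each. With the replicate block 0 clock probe sets passed in each comparison, and the smallest adjusted p was 0.229. Same-numbered arrays did not deviate together over all tested probe sets (r between -0.033 and 0.076 over 10 pairs of diets). This cannot show whether the numbers pair the samples, because a pairing that touches few genes would leave r near 0. The correlation of Nr1d1 and Npas2 was near 0 and turned to 0.018 with the 25th percentile as offset, and it ranged from -0.147 to 0.11 with 1 array left out. That of Dbp and Npas2 ranged from -0.728 to -0.565 with 1 array left out and had a permutation p above 0.05 without the first lard (0.0501), second olive oil (0.0782), first fish oil (0.113) or first chow array (0.0671). The number of arrays limits the precision, and signals near background bound what can be said of Per1, Per3, Dbp and Nr1d1.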
